A study of Mus musculus with 6 samples.

Results

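The genes of the proteasome, the complex that degrades ubiquitin-tagged proteins, were examined in ATAC-seq peak lists from mouse blood monocytes. Members were the autosomal protein-coding genes of the GRCm38 gene table whose symbol begins with Psma, Psmb, Psmc, Psmd, Psme, Psmf or Psmg. The rule gave 50 of 20665 such genes, on 15 chromosomes, of which 5 (Psmb8, Psmb9, Psmb10, Psme1 and Psme2) were set beside the other 45. Psmc3ip, Psme2b and Psme3ip1 were classed as other genes with the prefix, and they are counted among the 45 throughout. ATAC-seq uses the Tn5 transposase to cut and tag accessible DNA, so that a peak marks open chromatin. The study compared monocytes of thrombocytopenic mice, which have few platelets, with those of control mice. The DTR group held 3 libraries from mice of genotype PF4cre-iDTR given diphtheria toxin, and the WT group held 3 libraries from wild-type mice given the same toxin. In the former, Cre recombinase under the promoter of platelet factor 4, which is active mainly in megakaryocytes, switches on the receptor through which the toxin kills a cell. Both groups therefore received the toxin, and no group without toxin was analysed here. The sources used here do not say whether a library came from 1 animal or a pool, so that p-values measure the spread between these libraries only.

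The proteasome consists of a barrel-shaped core particle, built of alpha rings (Psma genes) and beta rings (Psmb genes), and of caps that open it. The main cap is the regulatory particle, whose ATPases (Psmc genes) unfold substrates and whose other subunits (Psmd genes) bind and deubiquitinate them. In immune cells, and after interferon gamma, Psmb8, Psmb9 and Psmb10 replace the catalytic subunits Psmb5, Psmb6 and Psmb7 to form the immunoproteasome, and Psme1 with Psme2 form the cap PA28, which favours peptides for MHC class I. Monocytes carry both kinds of particle and present such peptides to T cells.

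The sequences around the start sites are shown for the inducible genes, beside windows of other members. Each line gives the 300 bases from 250 before to 50 after a RefSeq start site, 5′ to 3′ on the gene's own strand, with GRCm38.p6 coordinates. Shown are the 5 immunoproteasome and PA28 genes, 2 of the subunits they replace, and Psme3 as an example of the windows with repeated ETS letters. Capitals mark matches, on either strand, to any of 6 short motifs: CCAAT (NF-Y), GGGCGG (Sp1), CCGGAA (ETS factors), TGACNNNGC (the core of the antioxidant response element, ARE), TTCNNNGAA (the gamma-activated site, GAS) and AANNGAAA (the core bound by interferon regulatory factors, IRF). Psme2 has 2 listed start sites, of which 1 is shown.
Psmb8, chr17:34197945-34198244, plus strand: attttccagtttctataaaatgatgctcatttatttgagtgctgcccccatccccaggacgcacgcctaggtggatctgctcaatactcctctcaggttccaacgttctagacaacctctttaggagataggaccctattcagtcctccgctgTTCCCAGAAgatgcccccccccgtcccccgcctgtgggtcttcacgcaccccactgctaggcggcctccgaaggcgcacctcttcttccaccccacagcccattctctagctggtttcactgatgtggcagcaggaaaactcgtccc
Psmb9, chr17:34187281-34187580, minus strand: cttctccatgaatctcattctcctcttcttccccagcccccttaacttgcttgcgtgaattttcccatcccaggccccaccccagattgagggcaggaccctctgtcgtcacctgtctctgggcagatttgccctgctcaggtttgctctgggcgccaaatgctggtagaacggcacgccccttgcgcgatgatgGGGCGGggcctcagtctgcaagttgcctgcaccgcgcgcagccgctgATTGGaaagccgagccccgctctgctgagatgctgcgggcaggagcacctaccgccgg
Psmb10, chr8:105938343-105938642, minus strand: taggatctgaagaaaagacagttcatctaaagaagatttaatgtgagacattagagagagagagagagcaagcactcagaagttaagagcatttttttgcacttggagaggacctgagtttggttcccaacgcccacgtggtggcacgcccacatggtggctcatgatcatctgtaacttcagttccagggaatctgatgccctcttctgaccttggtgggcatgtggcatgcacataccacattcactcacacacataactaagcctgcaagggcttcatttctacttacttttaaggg
Psme1, chr14:55578244-55578543, plus strand: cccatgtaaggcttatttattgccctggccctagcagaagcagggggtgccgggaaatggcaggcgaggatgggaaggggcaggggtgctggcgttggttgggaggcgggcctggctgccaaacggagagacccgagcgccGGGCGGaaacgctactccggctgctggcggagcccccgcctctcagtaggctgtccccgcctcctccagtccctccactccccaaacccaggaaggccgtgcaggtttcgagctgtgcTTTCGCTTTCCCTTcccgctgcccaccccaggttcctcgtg
Psme2, chr14:55591052-55591351, minus strand: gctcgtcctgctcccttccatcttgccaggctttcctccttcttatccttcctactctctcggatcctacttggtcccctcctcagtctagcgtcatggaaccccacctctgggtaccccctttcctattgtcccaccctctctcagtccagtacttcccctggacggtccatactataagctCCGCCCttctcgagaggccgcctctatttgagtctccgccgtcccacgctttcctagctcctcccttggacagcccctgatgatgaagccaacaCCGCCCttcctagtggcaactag
Psmb5, chr14:54617946-54618245, minus strand: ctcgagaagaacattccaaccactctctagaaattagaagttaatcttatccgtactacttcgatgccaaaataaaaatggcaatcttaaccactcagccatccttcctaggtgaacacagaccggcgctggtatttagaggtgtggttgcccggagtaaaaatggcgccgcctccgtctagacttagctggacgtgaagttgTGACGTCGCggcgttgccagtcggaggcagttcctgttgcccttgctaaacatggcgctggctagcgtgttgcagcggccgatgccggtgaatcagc
Psmb6, chr11:70525107-70525406, plus strand: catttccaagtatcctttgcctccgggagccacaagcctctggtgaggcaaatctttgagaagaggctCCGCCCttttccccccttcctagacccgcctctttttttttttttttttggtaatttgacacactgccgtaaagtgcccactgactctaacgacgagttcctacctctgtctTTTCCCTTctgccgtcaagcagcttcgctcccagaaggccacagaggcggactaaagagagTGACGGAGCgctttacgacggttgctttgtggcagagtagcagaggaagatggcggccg
Psme3, chr11:101315963-101316262, plus strand: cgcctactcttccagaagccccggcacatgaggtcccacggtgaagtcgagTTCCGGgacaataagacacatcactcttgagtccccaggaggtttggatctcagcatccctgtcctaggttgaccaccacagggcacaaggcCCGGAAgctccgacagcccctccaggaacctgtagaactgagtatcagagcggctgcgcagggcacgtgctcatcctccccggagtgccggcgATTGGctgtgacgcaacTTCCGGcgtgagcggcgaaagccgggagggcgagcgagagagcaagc

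Of the 50 members, 42 had at least 1 window in the RefSeq promoter table, 46 windows in all, against 20085 windows for all genes. The ETS letters stood in 22 of the 40 windows of the other members (55.0%) and in 0 of the 6 windows of the immunoproteasome and PA28 genes, against 19.1% of all windows. Psmb5 and Psmb6 held none either. Genes with ETS letters included Psma2, Psma5, Psmb4, Psmc1, Psmd2, Psmd6, Psmf1 and Psme3. The Psmb8 window held 1 GAS match, present in 7.78% of all windows, and the Psme1 window held overlapping IRF matches. The IRF core was not more frequent among the immunoproteasome and PA28 genes: it stood in 1 of their 6 windows, in 12 of the 40 windows of the other members and in 21.5% of all windows. Psmb9 held CCAAT and Sp1 letters, Psme2 held only Sp1 letters, and the Psmb10 window held none of the 6 motifs. The ARE core stood in the windows of Psmb5 and Psmb6 and in 15.0% of the windows of the other members, close to 13.1% of all windows. CCAAT was present in 35.0% of the other members' windows and 38.1% of all windows, and Sp1 letters in 20 of the 40 windows and in 47.0% of all windows. The observed-to-expected ratio of CpG dinucleotides had a median of 0.532 over the 6 windows of the immunoproteasome and PA28 genes, 0.787 over the other members and 0.586 over all windows, while median GC content was 58.5%, 58.2% and 57.0%. A match is a description of letters and not of a bound factor.

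The data were the authors' peak lists, called separately in each library, with no read counts, so that depth is unknown and no counting interval can be given. Each list held 77867 to 84029 peaks. Peaks covered 48.1 to 50.1 Mb in the DTR libraries and 43.8 to 47.7 Mb in the WT libraries, so the groups did not overlap in this total and WT replicate 2 was lowest. The lists do not name their genome build. A peak lay on 52.9% of GRCm38.p6 start sites in all 6 libraries, and on 2.57% to 3.33% of positions shifted by 5 or 20 kb. Of the marker genes for cell types that a blood sample can hold, a peak was present in all libraries at 9 of 9 monocyte, 3 of 6 neutrophil, 5 of 5 B cell, 3 of 6 T and NK cell, 2 of 3 erythroid and 4 of 6 megakaryocyte and platelet genes, and none of these genes passed the test between groups. Open chromatin at a marker gene does not measure how many cells of that type were present, and in bulk libraries a shift in the share of cells and a shift within cells cannot be told apart.

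Nearly all members held a peak in every library. A peak lay in the gene body or within 1 kb of it in all 6 libraries at 49 of 50 members (98.0%), against 70.7% of all autosomal protein-coding genes. The exception was Psme2b, a gene resembling Psme2, which had no peak in any library. Psma8 counted through regions inside the gene, as its region at a gene end was present in only 3 libraries. Psmb11 counted through a peak outside the gene body but within 1 kb of it. At 31 members there was exactly 1 peak in every library, and at 40 the number of peaks was the same in every library. These counts were not computed over all loci. Merging the peaks of all libraries gave 74 regions at members, of which 67 were present in all libraries, against 67099 of 90477 regions over all autosomes. Another protein-coding gene reached into the window of 23 members, so that some of the covered length belongs to shared chromatin.

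Start sites carried most of this signal. A peak covered a listed start site in every library at 40 of 42 members (95.2%), against 55.7% of 16457 genes. The 2 without one were Psme2b and Psmb11, the thymus-specific catalytic subunit. The 41 regions at a member's own start site were present in all libraries and had a median width of 989 bp and a median of 9.44 for the authors' fold enrichment, which MACS2 reports as signal over local background. The 20 regions elsewhere at these genes were narrower, with a median width of 395 bp and a median fold of 5.96, and 16 of them were present in all libraries. Along the start-site peaks of all members, the order of fold ran from 16.3 at Psmg4, a chaperone of core particle assembly, and 13.6 at the ATPase gene Psmc4, down to 4.74 at Psma7.

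The start-site peaks of the immunoproteasome and PA28 genes had a larger median width and a lower median fold than those of the other members. Widths had a median of 1466 bp over the 5 genes (1190 to 1828 bp) and of 933 bp over 35 other members (532 to 2119 bp). These medians use 1 start site per gene. Over all 10624 start sites with a peak in every library, the median was 1031 bp, with quartiles of 808 and 1371 bp. Here a gene can count more than once. Counted in this way, the medians were 1510.5 bp for the immunoproteasome and PA28 genes and 911 bp for the other members. Of the 35 other members, 9 had a wider peak than the narrowest of the 5 genes. Psme1 (1190 bp) and Psmb9 (1345 bp) lay within the quartiles of all start sites, as did Psmb8 in every library but DTR replicate 3. The peaks of Psmb9 and Psme2 also cover the start of a neighbour, Tap1 and Rnf31, so their widths are not those of a single promoter. The median of the 5 genes is that of Psmb8, whose peak was wider in DTR replicate 3 than elsewhere, and without this library it was 1348 bp. In fold enrichment the 5 genes had a median of 6.66 (5.84 to 8.97) and the other 35 a median of 9.84 (4.74 to 16.3). Ranked within each library's list and averaged over libraries, the medians lay at percentile 67.3 for the 5 genes and 92.2 for the others. Over all 10624 start sites the median percentile was 74.4. The widest other members also had low folds: Psma7 (2119 bp, 4.74), Psmd14 (2053 bp, 5.71), Psma5 (2008 bp, 5.92) and Psme4 (1862 bp, 5.68). Width and fold are therefore not read here as separate traits of the 5 genes. The ranges of both sets overlapped in width and fold, and these values are a description of single genes with no test between them. Among the 5 genes, Psmb9 had the highest fold (8.97) and Psmb10 the lowest (5.84).

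**Figure D1:**
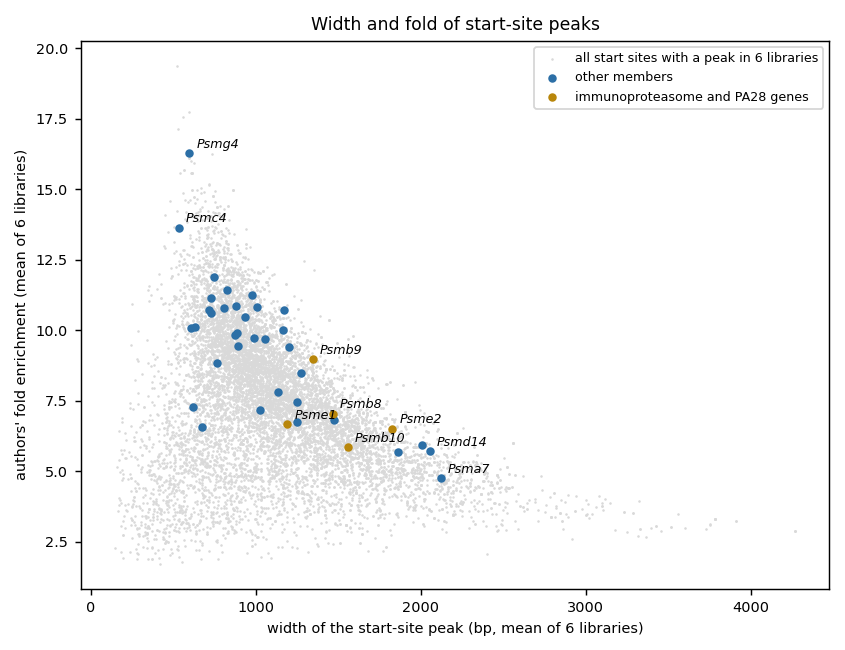
Mean width in bp (x axis) against the authors' mean fold enrichment (y axis) of start-site peaks over 6 libraries, with all 10624 start sites that have a peak in every library in grey, the immunoproteasome and PA28 genes in gold and the other members in blue. The gold points lie between 1190 and 1828 bp and from 5.84 to 8.97 in fold, while Psmg4 and Psmc4 are narrow with folds of 16.3 and 13.6.

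The peaks also differed in where they lay around the start. At Psmb8 the peak reached 805 to 813 bp upstream of the start site in 5 libraries and 1613 bp in DTR replicate 3, with a mean of 942 bp, and 522 bp downstream on average. At Psmb9 it reached 968 bp upstream and 376 bp downstream, and its upstream part covers the start of Tap1, a subunit of the peptide transporter for MHC class I, which lies 226 bp away on the other strand. At Psmb10 the peak lay mostly downstream, with 121 bp before and 1433 bp after the listed start, so that part of the window printed for this gene is outside the peak. The Psme1 peak was nearly centred (630 bp upstream, 560 bp downstream), as was that of Psme2 (891 and 935 bp). A start site of another gene on the opposite strand lay within 1 kb upstream at 7 of 42 members (16.7%, against 13.6% of all genes). Besides Psmb9 these were Psme2 with Rnf31, Psma2 with Mrpl32, Psma7 with Ss18l1, Psmc5 with Ftsj3, Psmd13 with Sirt3 and Psme3ip1 with Rspry1.

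**Figure D2:**
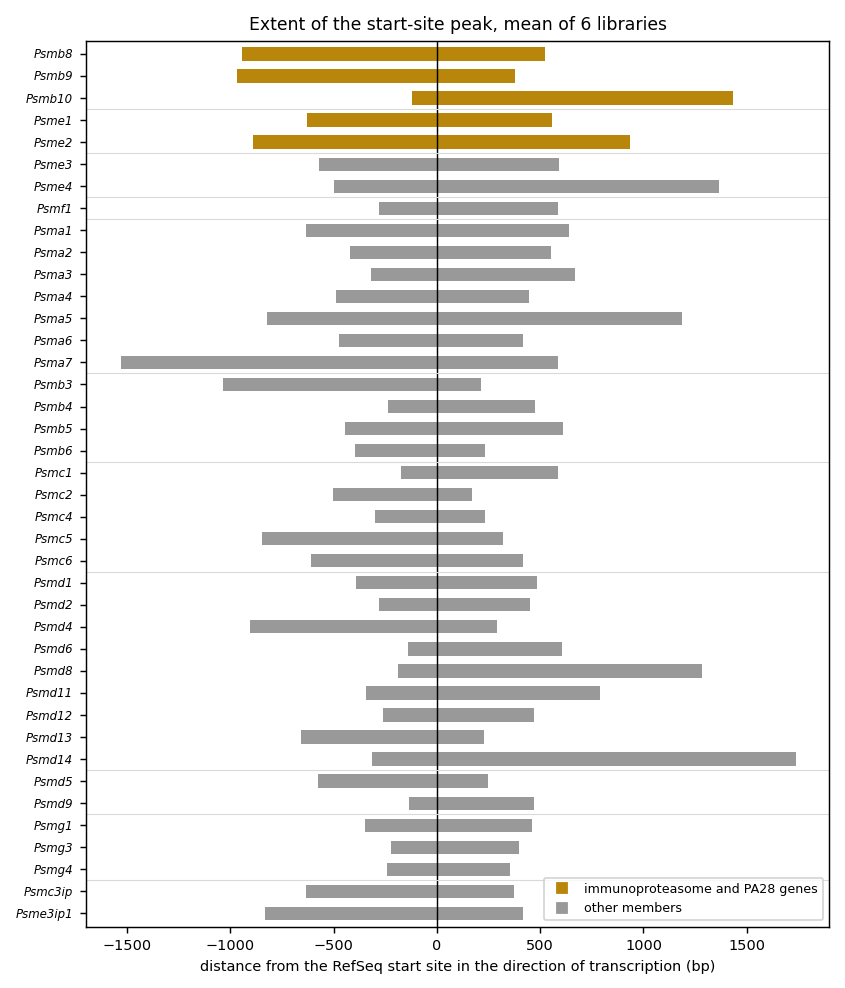
Extent of the start-site peak of 40 members, mean of 6 libraries, in bp from the RefSeq start site along the direction of transcription, with the immunoproteasome and PA28 genes in gold and other members in grey. Psmb8 and Psmb9 extend 942 and 968 bp upstream, the former raised by the 1613 bp of DTR replicate 3, and Psmb10 extends 1433 bp downstream.

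No member passed the test between DTR and WT. The measure was the length, in bp, that peaks covered in the gene body and 1 kb on each side. It was tested with limma on log2(bp + 100) over 14964 loci, with Benjamini-Hochberg adjustment over all of them and a threshold of 0.05. Of 49 members tested, 0 were called higher in DTR and 0 lower, where 0.241% of all loci were called higher and 0.0267% lower. At an unadjusted p under 0.05 the count was 0 of 49 members and 10.9% of all loci. It was 3 members without WT replicate 1, and 1 member without DTR replicate 2, WT replicate 2 or WT replicate 3, with 5 kb added and at a q-value of at most 1e-05. The share of all loci at this p was not computed under these settings, so these counts have no background to be read against. The smallest adjusted p among members was 0.503, at Psmd1, a scaffold of the regulatory particle.

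The median log2 difference, DTR minus WT, was 0.02 over the 49 members, with a range from -0.23 to 0.27, and 0.06 over all loci. It was 0.0045 over the 5 immunoproteasome and PA28 genes and 0.03 over the other 44 tested. The difference was above 0 at 37 of 49 members (75.5%) and at 80.0% of all loci. At 4 of 49 members (8.16%) every DTR library exceeded every WT library, against 17.8% of all loci, and these were Psmb5, Psmb6, Psmb8 and Psmc4. At 0 of 49 members did every WT library exceed every DTR library, against 0.989% of all loci. When each library was centred on its median these counts became 0 and 13 of 49, against 5.81% and 11.9% of all loci. The medians then became -0.07 for the 5 genes, -0.05 for the others and -0.02 for all loci. The direction of these small differences thus depended on the scaling, while the count of called members stayed at 0. With the lists cut to equal length the counts were again 4 and 0, against 15.2% and 1.86% of all loci. Without WT replicate 1 the first count was 17 (37.7% of all loci), without DTR replicate 2 it was 11 (31.6%), and without DTR replicate 1 or WT replicate 3 it was 7 (24.3% and 25.3%). It was 1 of 48 without the added 1 kb (16.3% of all loci) and 7 of 49 with 5 kb added (18.6%). WT replicate 2, which had the least covered length in all, was the lowest library at 24 of 49 members (49.0%) and at 45.2% of all loci, and DTR replicate 3 was the highest at 21 members (42.9%) and 31.4% of loci.

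**Figure D3:**
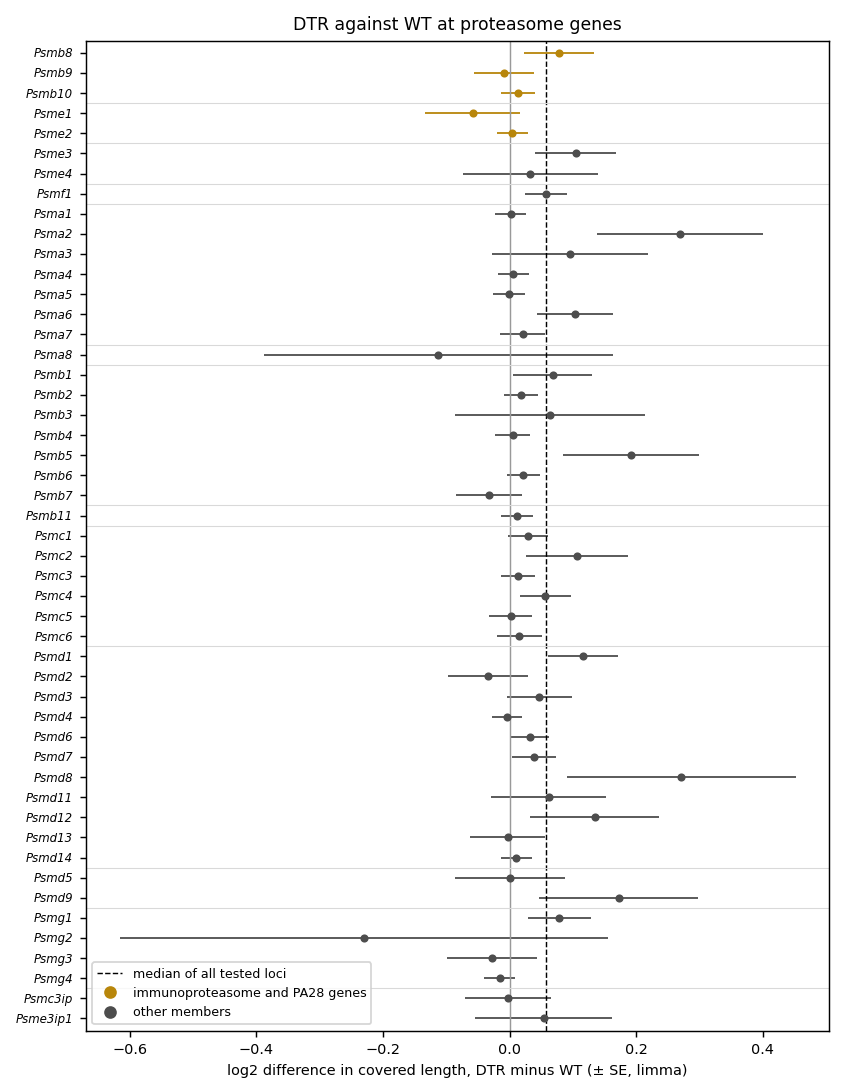
The log2 difference in covered length, DTR minus WT, with its standard error from limma (x axis), for 49 members grouped by role, with the 5 immunoproteasome and PA28 genes in gold and a dashed line at 0.06, the median of all loci tested. Points run from -0.23 (Psmg2) to 0.27 (Psmd8), and none passed an adjusted p of 0.05.

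Regions were also compared by their presence. Of the 74 regions at members, 0 were present in all DTR libraries and absent from all WT libraries, against 0.794% of 90477 regions, and 0 were present in all WT and no DTR libraries, against 0.0984%. The 7 regions present in some libraries lay at Psma6, Psma8, Psmb3, Psmb7, Psmd11 and Psme3, with 2 at Psmb7. The Psmb3 region, chr11:97710063-97710681, was present in DTR replicates 2 and 3 and WT replicate 1. For start-site peaks alone, a comparison added after the data were seen, every DTR library had a wider peak than every WT library at 7 of 42 start sites (16.7%), against 15.0% of all start sites. The reverse held at 0 of 42, against 0.828%. The 7 were at Psmb3, Psmb6, Psmb8, Psmc2, Psmc4, Psmd11 and Psme3.

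Psmb9 and Psmb10 were covered to a like length in every library, and Psmb8 in every library but DTR replicate 3. Psmb8, which replaces Psmb5 as the chymotrypsin-like subunit, was covered over 1339, 1349 and 1523 bp in DTR replicates 1, 2 and 3 and over 1331, 1333 and 1305 bp in WT replicates 1, 2 and 3. The DTR libraries lay just above the WT libraries, and the gap between DTR replicate 1 and WT replicate 2 was small beside the distance to DTR replicate 3. In that library the whole start-site peak was 2136 bp wide and was cut by the window's edge. In the other 5 libraries it was 1305 to 1349 bp wide. The log2 difference was 0.08 (SE 0.06, limma adjusted p = 0.622), and a two-sided exact permutation test gave p = 0.1, the smallest that 3 against 3 libraries can give. Without DTR replicate 3 the difference was 0.02. The authors' fold at this peak ran from 6.78 to 7.46 over the libraries.

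Psmb9, which replaces Psmb6, was covered over 1366, 1453 and 1466 bp in the DTR libraries and over 1477, 1473 and 1364 bp in the WT libraries. The groups overlapped, and the low libraries were DTR replicate 1 and WT replicate 3 (log2 difference -0.01, SE 0.05, limma adjusted p = 0.955). A further region, chr17:34180493-34181165, centred 6501 bp downstream of the start site and cut by the edge of the window, was present in all libraries with folds from 8.98 to 10.7. Psmb10, which replaces Psmb7, was covered over 1552, 1596 and 1542 bp in DTR and 1551, 1539 and 1553 bp in WT. Here the libraries of both groups were interleaved (log2 difference 0.01, SE 0.03, limma adjusted p = 0.860).

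The genes of the PA28 cap overlapped between groups as well. Psme1 was covered over 1225, 1032 and 1241 bp in DTR and 1253, 1203 and 1189 bp in WT, with DTR replicate 2 standing below the other libraries. Its log2 difference was -0.06 (SE 0.08, limma adjusted p = 0.768), and without DTR replicate 2 it was 0.02. Psme2 was among the steadiest members, at 1826, 1820 and 1846 bp in DTR and 1839, 1815 and 1820 bp in WT (log2 difference 0.0045, SE 0.02, limma adjusted p = 0.958). Summed over the 5 genes, peaks covered 7308, 7250 and 7618 bp in DTR and 7451, 7363 and 7231 bp in WT. Both groups shared the range, with DTR replicate 3 highest and WT replicate 3 lowest.

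**Figure D4:**
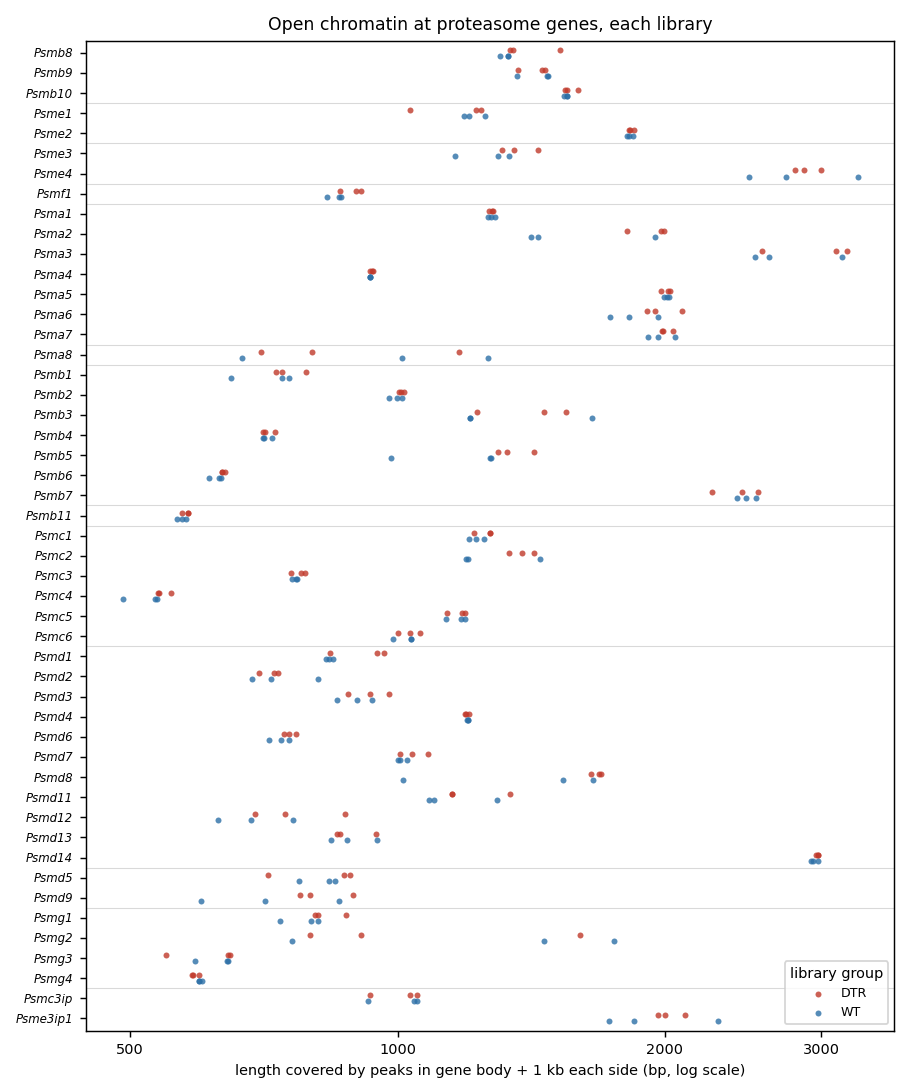
Length covered by peaks in the gene body and 1 kb on each side (x axis, bp, log scale) for 49 members grouped by role, with 1 point per library, DTR in red and WT in blue. The points of both groups overlap at most members, and lie within 1815 to 1846 bp at Psme2.

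The catalytic subunits of the constitutive core were compared in the same way. Psmb5, the chymotrypsin-like subunit, was covered over 1425, 1329 and 1297 bp in DTR and 1272, 983 and 1274 bp in WT. All DTR libraries lay above all WT libraries, with WT replicate 2 far below the rest. In that library the start-site peak was 790 bp wide, against 1079 to 1146 bp elsewhere. The log2 difference was 0.19 (SE 0.11, limma adjusted p = 0.552, exact permutation p = 0.1), and it was 0.08 without WT replicate 2. Psmb6, the caspase-like subunit, was covered over 634, 634 and 639 bp in DTR and 613, 629 and 633 bp in WT. The groups did not overlap, but DTR replicate 1 and WT replicate 3 were nearly equal (log2 difference 0.02, SE 0.03, limma adjusted p = 0.759). Psmb7, the trypsin-like subunit, was covered over 2548, 2257 and 2443 bp in DTR and 2531, 2467 and 2412 bp in WT, where the groups overlapped (log2 difference -0.03, SE 0.05, limma adjusted p = 0.824). The 3 immunoproteasome genes and the 3 subunits they replace thus each lacked a called difference, and no test between them was made.

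Among the other structural subunits, the 7 alpha genes had log2 differences from -0.0014 to 0.27 and a median of 0.02. Psma4 was the steadiest, at 930 to 939 bp over all libraries. Psma2 had a value of 0.27 (SE 0.13, limma adjusted p = 0.508), from 1813, 1978 and 1997 bp in DTR and 1438, 1947 and 1412 bp in WT. WT replicate 2 lay within the DTR range while WT replicates 1 and 3 were low. The start-site peak of Psma2 was alike in all libraries (965 to 985 bp), and the spread came from a region 6000 bp downstream of it, chr13:14618725-14619759. That region was 848, 994 and 1025 bp wide in DTR and 453, 978 and 443 bp wide in WT. Psma3 had among the longest coverage, at 2570, 3119 and 3206 bp in DTR and 3166, 2525 and 2618 bp in WT. High and low libraries were found in both groups. Psma8, the testis-specific alpha subunit, was covered over 801, 702 and 1173 bp in DTR and 1011, 668 and 1263 bp in WT, again with both groups spread over the whole range (log2 difference -0.11, SE 0.28, limma adjusted p = 0.886). Psmb11 had 572 to 580 bp in DTR and 565 to 578 bp in WT, all from 1 region centred 5258 bp from its start and cut by the window's edge, chr14:54629977-54631160. The whole region was 1174, 1184 and 1128 bp wide in DTR and 1115, 1106 and 1104 bp wide in WT, without overlap. Among the 74 regions at members, 9 separated in this direction and 0 in the other. The share over all regions was not computed.

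The 6 ATPase genes of the regulatory particle had log2 differences from 0.0019 to 0.11. Psmc4 was covered over 556, 537 and 539 bp in DTR and 533, 536 and 490 bp in WT. The groups did not overlap, though DTR replicate 2 and WT replicate 2 differed by only 1 bp (log2 difference 0.06, SE 0.04, limma adjusted p = 0.625). At Psmc1 the region with the highest fold was not at the start site but 5964 bp downstream, chr12:100115920-100116413, with a fold of 12.4 to 13.4 in the 6 libraries. The start-site peak of the same gene had a mean fold of 8.84.

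The 11 genes of the other regulatory particle subunits had a median log2 difference of 0.04. Psmd8 had the largest value of any member, 0.27 (SE 0.18, limma adjusted p = 0.608). It was covered over 1653, 1688 and 1694 bp in DTR and 1658, 1013 and 1536 bp in WT. WT replicate 2 stood apart from the other 5 libraries, with a start-site peak of 613 bp, and without this library the difference was 0.07. In WT replicate 2 the region at the start site held 2 peaks, where each of the other 5 libraries had 1. Psmd12 was covered over 746, 691 and 872 bp in DTR and 763, 627 and 684 bp in WT (log2 difference 0.13, SE 0.10, limma adjusted p = 0.639). Psmd2, a scaffold that binds ubiquitin receptors, was covered over 725, 698 and 734 bp in DTR and 813, 686 and 721 bp in WT (log2 difference -0.03, SE 0.06, limma adjusted p = 0.849). The groups overlapped at both genes, with WT replicate 1 the highest library of Psmd2. Psmd14, the deubiquitinase, was covered over 2973, 2959 and 2972 bp in DTR and 2918, 2978 and 2940 bp in WT, and its libraries were interleaved. Psmd4, a ubiquitin receptor, varied only from 1192 to 1202 bp.

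Assembly factors, other activators and the inhibitor also overlapped between groups. Psmd9, a chaperone of the regulatory particle, was covered over 891, 776 and 796 bp in DTR and 858, 601 and 709 bp in WT (log2 difference 0.17, SE 0.13, limma adjusted p = 0.629). Of the chaperones of the core particle, Psmg2 varied most, over 909, 797 and 1605 bp in DTR and 1755, 1461 and 761 bp in WT (log2 difference -0.23, SE 0.39, limma adjusted p = 0.831, and -0.56 to -0.0047 on leaving out 1 library). Long and short coverage of Psmg2 occurred in both groups. Psmg4 stayed within 587 to 602 bp. Psme3, which forms a nuclear cap, was covered over 1351, 1310 and 1439 bp in DTR and 1336, 1299 and 1161 bp in WT (log2 difference 0.10, SE 0.06, limma adjusted p = 0.582). Psme4, the large cap PA200, was covered over 2995, 2805 and 2867 bp in DTR and 3297, 2485 and 2738 bp in WT (log2 difference 0.03, SE 0.11, limma adjusted p = 0.921). WT libraries held both the highest and the lowest value of Psme4. Psmf1, an inhibitor of the core particle, was covered over 862, 898 and 910 bp in DTR and 858, 832 and 864 bp in WT (log2 difference 0.06, SE 0.03, limma adjusted p = 0.561). Its groups overlapped only between DTR replicate 1 and WT replicate 3. Of the genes that share only the prefix, Psme3ip1, whose product binds Psme3, had a region centred 6814 bp downstream of its start, chr8:94584246-94584853, with folds of 10.6 to 14.8, above the 7.45 of its start-site peak.

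The spread between libraries of the same group was thus small at most members. Here the pooled within-group standard deviation was divided by the mean of the 6 libraries, so a difference between groups does not enter. This within-group coefficient of variation had a median of 4.95%, against 6.72% for all loci. It was under 2% at 13 members and over 10% at 11.

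Genes that work with the proteasome were open as well. Of 21 partners and regulators, such as Pomp, which assembles the core particle, and Nfe2l1, the factor that induces proteasome genes, 20 were in the table and all 20 had a peak in every library. None was called in either direction, 3 (among them Ecpas and Nfe2l2) had every DTR library above every WT library (15.0%, against 17.8% of all loci), and the median log2 difference was 0.02. Of 12 genes of interferon signalling and MHC class I presentation, all had a peak in every library and none was called. In this list 4 genes (among them Tapbp, Nlrc5 and Irf1) had every DTR library above every WT library (33.3%, against 17.8% of all loci), and the median log2 difference was 0.09. Irf1, which induces immunoproteasome genes, was covered over 1296, 1383 and 1596 bp in DTR and 1203, 1255 and 1139 bp in WT (log2 difference 0.23, SE 0.08, limma adjusted p = 0.435). Tap1, the neighbour of Psmb9 and Psmb8, was covered over 2210, 2186 and 2974 bp in DTR and 2208, 2201 and 2130 bp in WT. The wide Psmb8 peak of DTR replicate 3 reaches into the window of Tap1, so the high value there comes from the same peak. These genes were named after their values were seen.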

How the data were processed

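ATAC-seq libraries were made from aliquots of monocytes and sequenced as paired ends on an Illumina NovaSeq 6000, per the labels' protocols. Per the submitters' processing notes the authors used fastp, Bowtie, Bowtie2 2.4.4 and MACS2. The genome build and the peak-calling parameters: not given in the sources used here. The deposited broad peak lists, 1 per library, hold a score, a ratio (fold enrichment over local background), and p- and q-values as −log10 values, all made by the authors. In every list the score was 10 times the −log10 q-value, to within 1 unit. Fold values served only to describe peaks or rank them within a list.

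The covered length of each autosomal protein-coding gene with 1 kb on each side was summed per library. Loci with a peak in at least 3 libraries were tested with limma 3.58.1 (R 4.3.3) on log2(bp + 100), DTR against WT, without a replicate block. The script was tested on simulated data. Exact permutation tests were two-sided. Regions were peaks of all libraries merged where they overlapped. Start sites came from RefSeq promoter windows (GRCm38.p6), which lack 8 members. Exons and introns were not assigned. Alternatives were other pseudocounts, filters, scaling, list length, peak thresholds, window sizes, overlap rules, a replicate block and leaving out each library.

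Genes named with values in every library were the 5 immunoproteasome and PA28 genes, the subunits they replace, other activators and the inhibitor, tissue-restricted subunits, and members with the largest differences or longest coverage. Other named genes were chosen after their values were seen. Members and lists were chosen with earlier results of these data known. Start-site width, library ranks and divergent neighbours were added after the data were seen. Values of some genes on the partner and interferon lists are not reported here.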

Additional observations from a re-analysis of the deposited data

How the results depend on the processing

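Over 17 other settings the count of called members stayed at 0 in each direction, and a peak was present in every library at 48 members without extension or with most of the peak required in the locus, and at 49 under the other settings that changed the peaks or libraries used. Calls over all loci moved more, from 36 higher and 4 lower to 11 and 1 with only loci above 0 in all libraries, 19 and 3 with median centring, 28 and 12 at equal list length, 74 and 3 at q of at most 1e-05, and 2 to 99 higher and 1 to 8 lower on leaving out 1 library. With extension removed 40 and 2 were called, and with 5 kb 33 and 2. Same-numbered libraries did not deviate together (correlations of -0.04, 0.07 and -0.02), and with a replicate block 0 members and 2 loci higher and 0 lower were called.

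Members with every DTR library above every WT library numbered 4 in the main analysis (17.8% of all loci). They numbered 1 (Psme3) without extension (16.3%), 7 with 5 kb (18.6%) and 5 to 17 on leaving out 1 library (20.9% to 37.7%). On leaving out 1 library, 0 to 1 went the other way (1.72% to 3.96%). With median centring the counts were 0 and, the other way, 13 of 49, against 5.81% and 11.9% of all loci. The 17 arose without WT replicate 1, 11 without DTR replicate 2, and 7 each without DTR replicate 1 and WT replicate 3. Fewer libraries per group make such separation easier. With 5 kb, 1 of 115 regions (0.87%, against 0.794% of all regions) was in all DTR and no WT libraries, chr2:38648517-38648702, 4565 bp from Psmb7. Median centring moved the median of the 5 immunoproteasome and PA28 genes to -0.073 and that of the others to -0.052, while that of all loci became -0.020.

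Log2 differences changed sign as follows, none of them called. Median centring gave -0.064 for Psmb10, -0.073 for Psme2, -0.056 for Psmb6, -0.045 for Psme4, -0.020 for Psmf1, -0.065 for Psmb11 and -0.067 for Psmd14. Equal list length gave 0.11 for Psma8. The stricter q gave 0.0067 for Psmb7 and 0.39 for Psma8. Removing the extension gave 0.023 for Psmb9. The 5 kb extension gave 0.023 for Psme1 and 0.059 for Psmb7. Counting only peaks with most of their length in the locus gave 0.0077 for Psmb9 and -1.83 for Psmb11, whose peak is cut by the window. Leaving out 1 library gave ranges of -0.044 to 0.021 for Psmb9, -0.00058 to 0.023 for Psmb10, -0.10 to 0.020 for Psme1, -0.0012 to 0.0098 for Psme2, -0.070 to 0.014 for Psmb7, -0.34 to 0.074 for Psma8, -0.080 to 0.028 for Psmd2 and -0.055 to 0.14 for Psme4. Without a change of sign the ranges were 0.063 to 0.29 for Psmd9, 0.051 to 0.20 for Psmd12, 0.048 to 0.14 for Psme3, 0.034 to 0.19 for Psma3 and 0.19 to 0.41 for Psma2. For the other sign changes the cause was not tested. Read depth is unknown, so a peak missing or split in 1 library cannot be told apart from shallow sequencing.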
